A study of Mus musculus with 144 samples.

Results

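Glomerular endothelial cells (gECs) of 6-week-old BTBR ob/ob mice were compared with those of BTBR wild-type (WT) mice by bulk RNA-seq of sorted cells. The 16 libraries were chosen by the cell type, genotype and age in the sample labels, 8 per genotype, out of 144 samples in the series. Each group held 4 female and 4 male libraries, and the ob/ob mice carried the leptin-null Lep ob allele on both chromosomes. Mice of both genotypes also carried a podocyte reporter, in which podocyte-specific Cre switches a Rosa26 tdTomato/EGFP cassette to EGFP in podocytes, so the WT controls were reporter mice as well. gECs were sorted from bead-isolated, enzyme-digested glomeruli as live single cells that were positive for podocalyxin and negative for CD45, EGFP and CD73. The labels number the libraries within each sex but do not state that each came from a separate mouse, so the p-values measure the spread between libraries, which may partly be technical. In bulk libraries, fewer cells of a type and less RNA per cell cannot be told apart.

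The glomerular endothelium is a fenestrated capillary lining covered by a glycocalyx, and it forms the filtration barrier together with podocytes and the shared basement membrane. Its fenestrae lack the diaphragms found in most other fenestrated vessels, podocyte-derived VEGF-A sustains it, and flow through the capillary is read by endothelial BMP receptors, KLF transcription factors and mechanosensitive channels. BTBR ob/ob mice lack leptin, become obese and hyperglycemic, and are used as a model of diabetic nephropathy (DN).

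The 16 libraries held 22.3 to 35.0 M counts. The endothelial genes Kdr, Emcn and Pecam1 were high in all 16 libraries, while Ptprc, which encodes CD45, averaged 0.673 CPM (counts per M of the TMM-scaled library). Lep counts were at 0 in every library except ob/ob male 3 (3 counts) and male 4 (1 count), so the leptin gene was too low in gECs to check the genotype labels. Xist and Ddx3y matched the labelled sex in all 16 libraries. Podocyte transcripts were present at a low level: Nphs1 averaged 104 CPM in gECs against 2790 CPM in sorted podocytes. The summed level of 13 podocyte markers (without Podxl, a gate gene) was 958 to 3970 CPM in WT and 1110 to 2170 CPM in ob/ob, with WT male 1 (3190 CPM) and WT male 2 (3970 CPM) above all other libraries. These 2 libraries also lay apart from the rest on the second principal component, and the comparison is given without them where it mattered.

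Of 18053 genes tested, 1203 (6.66%) differed between ob/ob and WT gECs at 6 weeks at an adjusted p below 0.05 (edgeR quasi-likelihood test with Benjamini-Hochberg adjustment over all genes). Genes higher in ob/ob numbered 800 (4.43%) and genes lower numbered 403 (2.23%), so 66.5% of the calls were higher. A change of at least 2-fold was found for 144 of the higher and 79 of the lower genes. The 8 ob/ob libraries did not overlap the 8 WT libraries in 192 of the genes tested (1.06%), 185 of which were called. The median log2 fold change of all tested genes was -0.02. A single library weighed heavily on the count: without ob/ob female 3, 2457 genes were called (1504 higher and 953 lower). ob/ob female 3 was lowest on the first principal component (23.7% of variance), at -61.9 against -56.5 to 11.6 in WT. ob/ob female 1 (7.47) also lay within the WT range. Of the 6-week libraries, ob/ob female 3 had the most detected genes (22238) and the highest mitochondrial share (11.7%). Detected genes numbered 20546 to 21600 in WT and 20021 to 22238 in ob/ob. The part of library quality in the count was not tested. Leaving out any other library gave at least 858 calls. On the deposited TPM values 710 genes were called, 344 higher and 366 lower, so 48.5% of those calls were higher. The plot of fold change against level shows the calls across the whole range of expression.

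**Figure D1:**
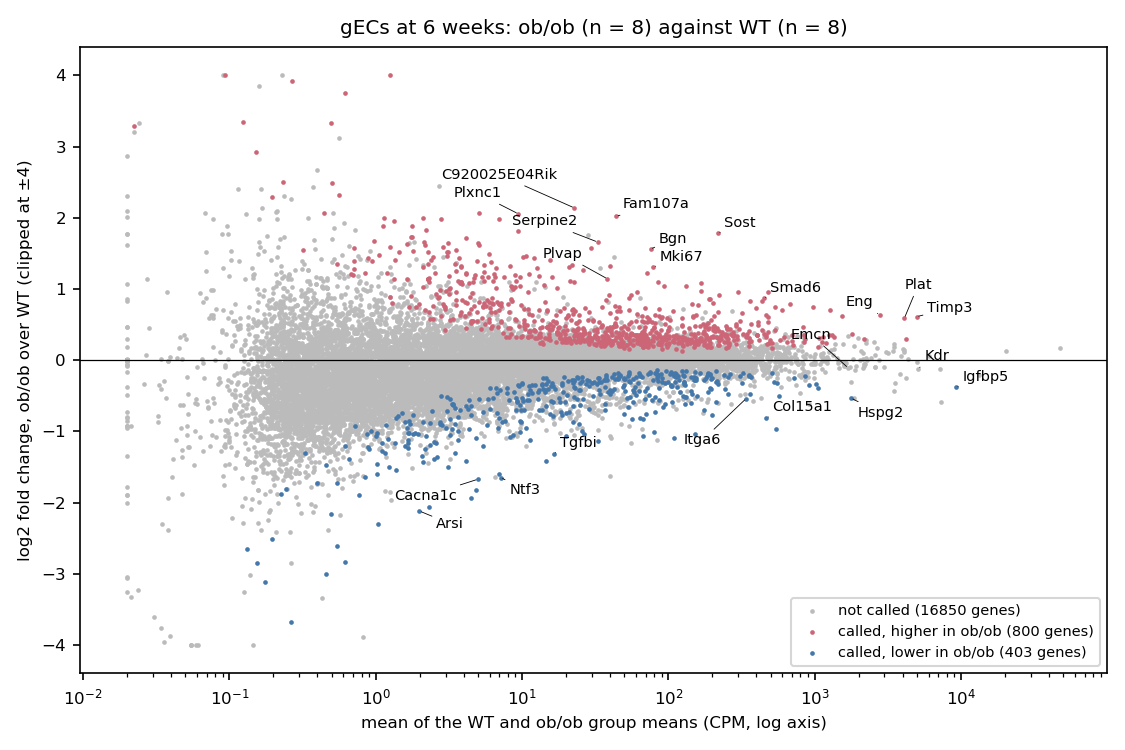
Log2 fold change of ob/ob over WT gECs at 6 weeks (vertical axis, clipped at ±4) against the mean of both group means in CPM (horizontal log axis), 1 point per tested gene, with called genes in red (800 higher) and blue (403 lower). The column of points at the left edge holds genes at or under the lowest level drawn. Large changes are seen for genes of middle level such as Sost (log2 fold change 1.78) and Bgn (1.56), whereas the abundant endothelial genes Kdr and Emcn lie at -0.12 and -0.11.

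The gene with the smallest p was Plxnc1 (chr10:94790866-94944835 in GRCm38/mm10), which encodes a semaphorin receptor. Its lowest, median and highest values were 1.39, 4 and 4.84 CPM in WT and 11.8, 15.6 and 19.6 CPM in ob/ob. All ob/ob libraries lay above all WT libraries (log2 fold change 2.06 ± 0.18 (SE), adjusted p = 2.29e-10). Serpine2 (chr1:79794197-79861180), which encodes the protease inhibitor nexin-1, had 12.1, 14 and 25.2 CPM in WT and 42.5, 50.9 and 55.7 CPM in ob/ob, again with no overlap between groups (log2 fold change 1.66 ± 0.16 (SE), adjusted p = 8.79e-10). Sost (chr11:101962458-101967015), the gene of the secreted WNT and BMP antagonist sclerostin and a known gEC marker in the mouse, had 42.2, 85.2 and 179 CPM in WT and 173, 297 and 651 CPM in ob/ob. The highest WT library (179 CPM) reached just above the lowest ob/ob library (173 CPM), and the difference was log2 fold change 1.78 ± 0.23 (SE), adjusted p = 5.47e-07. Bgn, the gene of the small proteoglycan biglycan, rose without overlap, with 29.4 to 46.9 CPM in WT and 59.4 to 182 CPM in ob/ob (log2 fold change 1.56 ± 0.19 (SE), adjusted p = 3.36e-07).

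Among the 14 genes with the largest increases, Fam107a and Fkbp5 are known glucocorticoid-induced genes, Wnt2 encodes a WNT ligand, Lamc3 a laminin chain, Col13a1 a transmembrane collagen, Blk a Src-family kinase and Serpina3n a secreted protease inhibitor. Depdc1a and Troap are genes of the mitotic spindle. Fam107a had 11.7, 17.5 and 25.1 CPM in WT and 29.4, 53.1 and 152 CPM in ob/ob, with no overlap between genotypes (log2 fold change 2.02 ± 0.33 (SE), adjusted p = 4.22e-05). Its highest libraries, ob/ob male 3 (152 CPM) and male 2 (104 CPM), were spread well above the other ob/ob libraries. Wnt2 was near the detection limit in WT, with 0.169 to 0.757 CPM in WT and 0.823 to 2.97 CPM in ob/ob, and the groups did not overlap (log2 fold change 1.89 ± 0.35 (SE), adjusted p = 0.00029). Col13a1 had 0.44 to 2.02 CPM in WT and 2.14 to 7.38 CPM in ob/ob, also without overlap (log2 fold change 1.99 ± 0.27 (SE), adjusted p = 1.74e-06). Serpina3n (2.00 ± 0.50), Lamc3 (1.99 ± 0.51), Depdc1a (1.95 ± 0.48), Troap (1.88 ± 0.44), Blk (1.83 ± 0.32) and Fkbp5 (1.81 ± 0.47) made up the rest of the named increases together with 3 pseudogenes. Without WT male 1 and male 2, Serpina3n (1.68, adjusted p = 0.0569) and Gm6265 (2.08, adjusted p = 0.0656) no longer passed.

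The pseudogenes were C920025E04Rik, H2-Bl and Gm6265, and the identity of their reads is uncertain because they resemble expressed gene copies. C920025E04Rik (chr17:36109234-36111658, an unprocessed pseudogene in GENCODE M21) and H2-Bl (chr17:36080115-36084223, a polymorphic pseudogene) lie side by side among the class I genes of the major histocompatibility complex. C920025E04Rik had 4.7, 9.02 and 11.2 CPM in WT and 24.7, 32.6 and 69 CPM in ob/ob (log2 fold change 2.14 ± 0.20 (SE), adjusted p = 8.79e-10) and H2-Bl had 2.05, 2.74 and 3.62 CPM in WT and 4.93, 8.79 and 24.5 CPM in ob/ob (log2 fold change 1.99 ± 0.27 (SE), adjusted p = 1.47e-06). No ob/ob library overlapped a WT library for either gene, and ob/ob female 4 was the highest for both. Gm6265, a processed pseudogene, ranged from 0 to 7.46 CPM in WT and 2.93 to 12.4 CPM in ob/ob, with 3 of the 4 WT female libraries at 0.

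Among the 14 largest decreases, several genes encode ion channels, secreted signals or matrix proteins. Cacna1c (chr6:118587240-119196418), the pore subunit of an L-type calcium channel, had 5.5, 7.64 and 9.07 CPM in WT and 1.61, 2.24 and 3.33 CPM in ob/ob. The groups did not overlap (log2 fold change -1.67 ± 0.21 (SE), adjusted p = 4.29e-07). A second calcium channel gene, Cacna1g, fell less evenly, with 2.9 to 21.8 CPM in WT and 1.07 to 5.53 CPM in ob/ob (log2 fold change -1.59 ± 0.47 (SE), adjusted p = 0.0312). Ntf3, which encodes neurotrophin-3, had 7.71, 10.6 and 16.7 CPM in WT and 0.784, 4.54 and 4.98 CPM in ob/ob, without overlap (log2 fold change -1.65 ± 0.26 (SE), adjusted p = 2.81e-05). Its ob/ob females were close together (4.46 to 4.98 CPM), whereas 3 of the 4 ob/ob males were lower (0.784 to 2.72 CPM).

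Arsi, a sulfatase gene, showed no overlap either, at 2.04 to 4.61 CPM in WT and 0.198 to 1.63 CPM in ob/ob (log2 fold change -2.12 ± 0.43 (SE), adjusted p = 0.00101). Dkk3, from the Dickkopf family of WNT modulators, (-1.83 ± 0.46), Trabd2b, a WNT-inactivating protease gene (-1.94 ± 0.47), Igf1 (-1.43 ± 0.45), the small leucine-rich proteoglycan gene Ogn (-1.60 ± 0.46), Eya1 (-1.54 ± 0.49), Epn3 (-1.42 ± 0.42), Snx31 (-2.06 ± 0.53) and Clstn2 (-2.31 ± 0.71) overlapped between groups. The processed pseudogene Gm5884 was also among the 14 (-1.50 ± 0.43). Trabd2b, Snx31, Epn3 and Eya1 were each highest in WT male 1 and WT male 2, at up to 13.8, 7.16, 45.5 and 3.27 CPM. Dkk3, Ogn and Clstn2 were highest in the same 2 libraries. Those libraries had the most podocyte RNA and also the highest summed parietal markers, at 17.8 and 14.6 CPM. Without these 2 libraries 10 of the 14 decreases no longer passed, with log2 fold changes from -1.57 (Clstn2, adjusted p = 0.213) to -0.73 (Epn3, adjusted p = 0.319). Some calls were also lost when other single libraries were left out. Of 25 alternative settings, the call was lost in 16 for Igf1, 14 for Eya1, 12 for Clstn2 and 7 for Cacna1g. Cacna1c, Ntf3 and Arsi were among those that still passed without WT male 1 and male 2. All 14 passed when the summed podocyte, mesangial and parietal markers entered the fit as a covariate. In WT, podocyte markers made up 958 to 3970 CPM of that sum and parietal markers 5.73 to 17.8 CPM. The covariate could therefore hardly adjust for parietal RNA.

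**Figure D2:**
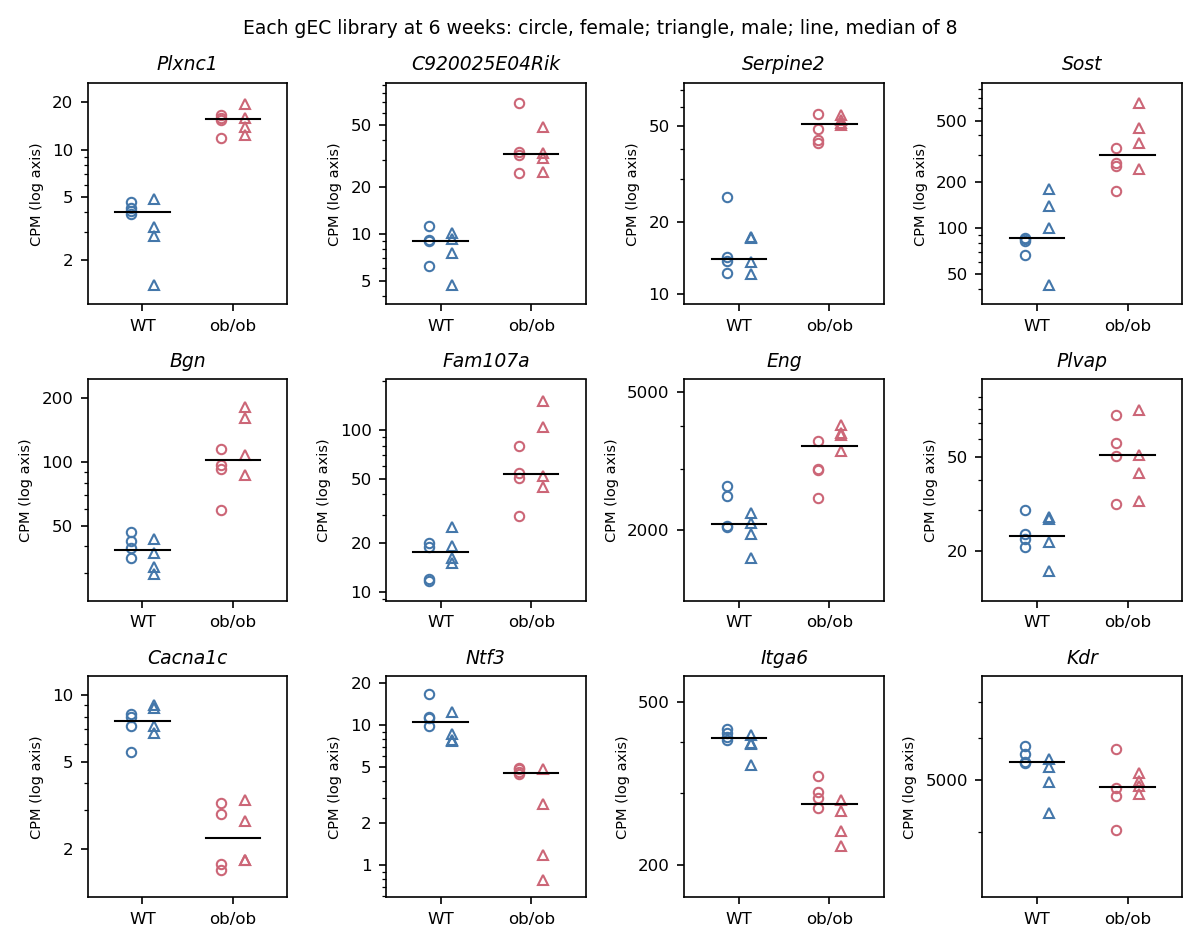
CPM of 12 genes (log axes) in each of the 16 gEC libraries at 6 weeks, WT in blue and ob/ob in red, with circles for females, triangles for males and a line at the median of 8. Plxnc1, C920025E04Rik, Serpine2, Bgn, Fam107a, Plvap, Cacna1c, Ntf3 and Itga6 do not overlap between genotypes, Sost and Eng overlap slightly, and Kdr overlaps widely.

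Cell cycle genes had 11 increases, the largest number in any of the 31 pathway lists, and a share second to that of BMP and TGF-beta signaling. Of 27 proliferation genes tested, 11 were higher and none lower in ob/ob (40.7% higher against 4.43% of all genes), and the list median was 0.23. The 11 were Mki67, Top2a, Ccna2, Ccnb1, Ccnb2, Cdk1, Plk1, Aurka, Aurkb, Birc5 and Cdc20, which act from late S phase to mitosis. Mki67, the Ki-67 gene, had 16.1, 49.9 and 74.9 CPM in WT and 73.4, 91.2 and 205 CPM in ob/ob (log2 fold change 1.31 ± 0.32 (SE), adjusted p = 0.00685). The highest WT library lay just above the lowest ob/ob library. Ccnb2, the cyclin B2 gene, had 1.84, 2.92 and 4.02 CPM in WT and 3.58, 6.25 and 9.53 CPM in ob/ob, again with a slight overlap (log2 fold change 1.20 ± 0.24 (SE), adjusted p = 0.000727). Cdc20, an activator of the anaphase-promoting complex, had 2.56 to 7.55 CPM in WT and 5.34 to 13.1 CPM in ob/ob (log2 fold change 1.01 ± 0.24 (SE), adjusted p = 0.00434), and Aurkb, a mitotic kinase gene, 0.354 to 3.25 CPM in WT and 2.01 to 5.79 CPM in ob/ob (log2 fold change 1.62 ± 0.37 (SE), adjusted p = 0.00361). Levels of these genes were low: the ob/ob medians of Ccnb2, Cdc20, Plk1 and Aurkb were 6.25, 8.05, 3.66 and 2.68 CPM.

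Genes of DNA replication and the G1/S step did not pass the test in either direction. The replicative helicase genes Mcm2, Mcm3, Mcm4, Mcm5, Mcm6 and Mcm7 ranged from -0.26 (Mcm7) to 0.24 (Mcm3), and Pcna (-0.20 ± 0.11), Tyms (-0.10 ± 0.17), Cdt1 (-0.09 ± 0.28), Cdc6 (-0.60 ± 0.32) and E2f1 (-0.37 ± 0.29) were below 0. The cyclin genes Ccnd1, Ccne1 and Ccne2 lay between -0.01 and 0.01. Rrm2, a nucleotide synthesis gene (0.81 ± 0.29, adjusted p = 0.0855), and Bub1, a spindle checkpoint gene (0.95 ± 0.42, adjusted p = 0.175), were higher in mean but did not pass. This split within the list was chosen after the values were seen. For proliferation, 8 genes were higher without ob/ob male 1, and 7 were higher and 1 lower without WT male 1 and male 2. In the same list, 3 of 27 genes were higher at 12 weeks and none at 18 weeks, when 5.49% and 4% of all genes were higher. The list medians were 0.26 at 12 weeks and 0.14 at 18 weeks. Counts of calls are no test of a difference between ages.

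The promoters of the mitotic genes are shown because many of them share the cell cycle genes homology region, a TTTGAA element bound by repressor and activator complexes of the G2/M program. In RefSeq windows (GRCm38.p6) from 250 bases before to 50 after the start, TTTGAA on either strand was found for 7 of the 9 higher genes with a window (77.8%), for 8 of 22 genes of the whole list (36.4%) and for 14.4% of the 11118 tested genes with a window. Stretches from 200 bases before to 10 after the start are given 5′ to 3′ on the gene's strand, with TTTGAA or its reverse complement in capitals. They are Ccnb2 (chr9:70421545-70421754, minus strand), Cdk1 (chr10:69352903-69353112, minus), Mki67 (chr7:135716370-135716579, minus), Cdc20 (chr4:118437334-118437543, minus) and Top2a (chr11:99024180-99024389, minus).
Ccnb2: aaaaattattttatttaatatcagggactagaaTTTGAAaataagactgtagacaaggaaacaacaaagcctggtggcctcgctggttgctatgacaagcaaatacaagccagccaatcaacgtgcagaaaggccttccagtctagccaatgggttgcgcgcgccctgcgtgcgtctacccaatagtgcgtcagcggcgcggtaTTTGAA
Cdk1: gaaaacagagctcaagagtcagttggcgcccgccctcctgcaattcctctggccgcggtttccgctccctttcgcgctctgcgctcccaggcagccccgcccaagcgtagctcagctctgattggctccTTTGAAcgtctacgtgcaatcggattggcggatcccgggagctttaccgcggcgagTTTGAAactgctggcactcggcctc
Mki67: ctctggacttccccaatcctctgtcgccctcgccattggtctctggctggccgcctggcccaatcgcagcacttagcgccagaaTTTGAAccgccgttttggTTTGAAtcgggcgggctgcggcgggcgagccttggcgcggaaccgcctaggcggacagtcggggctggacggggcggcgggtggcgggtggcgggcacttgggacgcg
Cdc20: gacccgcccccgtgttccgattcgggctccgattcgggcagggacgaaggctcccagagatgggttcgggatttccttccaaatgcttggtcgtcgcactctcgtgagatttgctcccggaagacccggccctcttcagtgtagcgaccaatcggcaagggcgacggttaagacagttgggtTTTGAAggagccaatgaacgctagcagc
Top2a: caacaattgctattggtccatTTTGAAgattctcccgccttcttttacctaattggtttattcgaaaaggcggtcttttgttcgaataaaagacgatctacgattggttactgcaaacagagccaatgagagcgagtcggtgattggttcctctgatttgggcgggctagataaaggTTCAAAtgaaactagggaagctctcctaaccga
The match lay 18 bases before the start in Cdc20 and began at base 5 of the transcript in Ccnb2. Cdk1, Mki67, Ccnb2 and Top2a held 2 matches each, and the windows of Birc5 and Ccnb1 held none. The higher genes are known mitotic genes, many of which share this element, so their share of matches is no independent evidence. The share of the whole list includes these same genes. A match describes the letters of the window only.

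**Figure D3:**
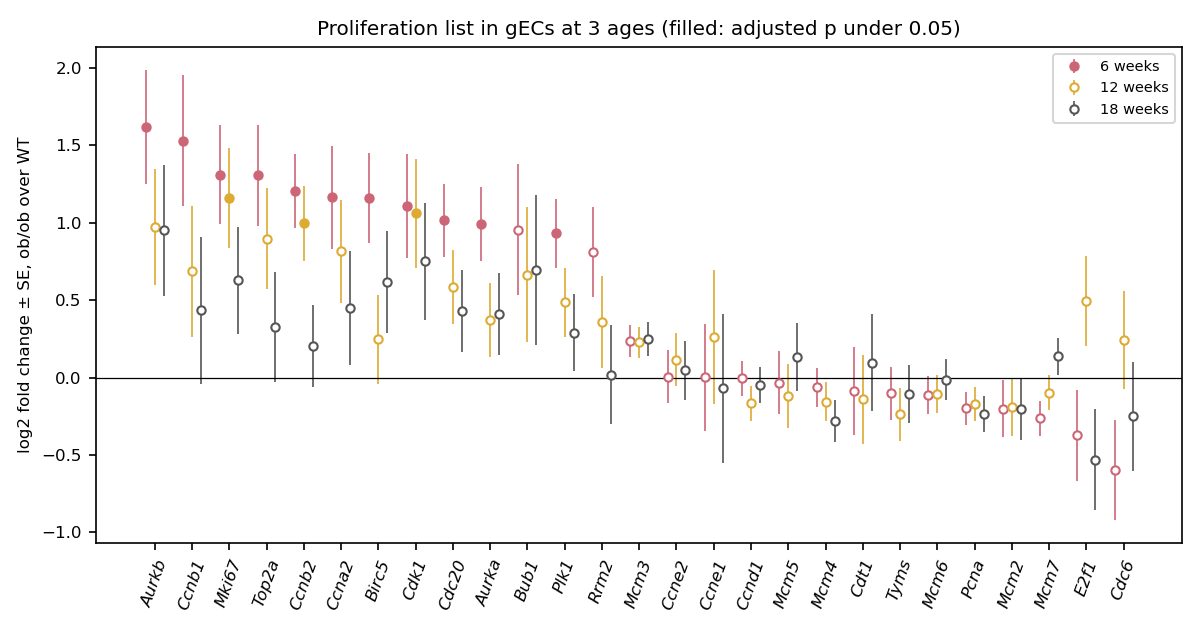
Log2 fold change of ob/ob over WT gECs (± SE, vertical axis) for the 27 proliferation genes at 6 weeks (red), 12 weeks (yellow) and 18 weeks (grey), with filled points at an adjusted p below 0.05. The 11 filled red points are genes of G2 and mitosis at 0.93 to 1.62, whereas the Mcm genes, Pcna and E2f1 lie between -0.37 and 0.24 at 6 weeks.

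Genes of BMP and TGF-beta signaling, by which endothelial cells read circulating BMP9 and BMP10, were higher in 10 of 24 tested and lower in 1 (41.7% and 4.17%, against 4.43% and 2.23% of all genes), with a list median of 0.32. Of the ligands, Bmp2 (0.44 ± 0.12) and Bmp6 (0.36 ± 0.11) rose, and Bmp4 had 0.62 ± 0.20, adjusted p = 0.0527. Of the receptors, Eng, which encodes the co-receptor endoglin, had 1670, 2080 and 2690 CPM in WT and 2480, 3510 and 4030 CPM in ob/ob (log2 fold change 0.64 ± 0.09 (SE), adjusted p = 3.35e-06). Only WT female 1 (2690 CPM) and WT female 2 (2520 CPM) lay above the lowest ob/ob library. The type I receptor gene Acvrl1 (0.28 ± 0.06) and the type II receptor gene Bmpr2 (0.24 ± 0.07) rose by less, and the TGF-beta receptor genes Tgfbr1 (-0.01 ± 0.06) and Tgfbr2 (-0.23 ± 0.07) did not pass.

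The inhibitory SMAD genes, which are feedback targets of the pathway, rose as well. Smad6 had 275, 296 and 438 CPM in WT and 383, 600 and 781 CPM in ob/ob (log2 fold change 0.87 ± 0.12 (SE), adjusted p = 1.18e-06), and Smad7 changed by 0.43 ± 0.09. Bmper, a secreted BMP modulator, had 10.2, 14.9 and 20.3 CPM in WT and 26.5, 27.2 and 39.6 CPM in ob/ob, without overlap (log2 fold change 1.09 ± 0.14 (SE), adjusted p = 4.67e-07). Among the targets, Atoh8 (0.56 ± 0.18) and Id2 (0.35 ± 0.11) rose, and Id1 (0.48 ± 0.16, adjusted p = 0.068) and Id3 (0.15 ± 0.14, adjusted p = 0.545) did not pass. Tgfbi, a matrix protein gene induced by TGF-beta in many cells, was the single decrease, with 16.3, 21.7 and 33.8 CPM in WT and 4.02, 9.37 and 15.3 CPM in ob/ob and no overlap (log2 fold change -1.31 ± 0.18 (SE), adjusted p = 1.68e-06). For BMP and TGF-beta signalling 6 genes were higher without ob/ob female 1, and 5 on the deposited TPM. In the promoter windows of this list, GGCGCC, letters bound by BMP-activated SMADs, was found for 2 of the 7 higher genes with a window (28.6%), for 7 of 17 genes of the whole list (41.2%) and for 23.4% of tested genes.

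Vasoactive genes rose in 9 of 24 tested (37.5%, against 4.43% of all genes), with none lower and a median of 0.29. Ddah1, which degrades an endogenous inhibitor of nitric oxide synthase, had 2.23, 3.18 and 5.14 CPM in WT and 6, 7.5 and 9.51 CPM in ob/ob, without overlap (log2 fold change 1.16 ± 0.16 (SE), adjusted p = 1.23e-06), and Ddah2 changed by 0.29 ± 0.07. Nos3, the endothelial nitric oxide synthase gene, had 191, 217 and 257 CPM in WT and 243, 282 and 305 CPM in ob/ob (log2 fold change 0.35 ± 0.11 (SE), adjusted p = 0.0409), a call lost in 11 of 25 alternative settings (adjusted p of up to 0.154). Ace, which makes angiotensin II, had 30.5, 37.4 and 42.3 CPM in WT and 53.6, 67.5 and 85 CPM in ob/ob, without overlap (log2 fold change 0.87 ± 0.14 (SE), adjusted p = 2.5e-05). Edn1, the endothelin-1 gene, ranged over 26.5 to 46 CPM in WT and 37.5 to 80.2 CPM in ob/ob (log2 fold change 0.69 ± 0.17 (SE), adjusted p = 0.00926), and its receptor gene Ednrb over 257 to 512 CPM in WT and 289 to 958 CPM in ob/ob (log2 fold change 0.60 ± 0.16 (SE), adjusted p = 0.0158). Npr1, the receptor of atrial natriuretic peptide (0.29 ± 0.06), and the adrenomedullin co-receptor genes Ramp2 (0.45 ± 0.09) and Ramp3 (0.53 ± 0.12) were higher, while their partner Calcrl was at -0.02 ± 0.09.

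Shear-responsive genes were higher in 6 of 23 (26.1%) and lower in 1 (4.35%), and coagulation genes were higher in 5 of 20 (25%) and lower in none, against 4.43% higher and 2.23% lower of all genes. Thbd, the thrombomodulin gene, had 352, 462 and 513 CPM in WT and 571, 729 and 860 CPM in ob/ob, without overlap (log2 fold change 0.70 ± 0.13 (SE), adjusted p = 0.000194). Entpd1, which removes extracellular ATP and ADP, had 95, 114 and 146 CPM in WT and 157, 221 and 280 CPM in ob/ob, without overlap (log2 fold change 0.97 ± 0.12 (SE), adjusted p = 1.35e-07). Plat, the tissue plasminogen activator gene, had 2130, 3290 and 4530 CPM in WT and 3220, 5340 and 6350 CPM in ob/ob (log2 fold change 0.59 ± 0.13 (SE), adjusted p = 0.00312), and Anxa2 (0.55 ± 0.09) and Pros1 (0.28 ± 0.07) rose too. Of the genes of mechanosensing, Trpv4 (0.71 ± 0.15) and the sphingosine receptor gene S1pr1 (0.54 ± 0.15) were higher, Adam15 was at 0.44 ± 0.10, Piezo1 was at 0.07 ± 0.06 and did not pass, and the semaphorin receptor gene Plxnd1 was lower without overlap (-0.22 ± 0.06, adjusted p = 0.0188). The flow-induced factors themselves had -0.06 ± 0.14, adjusted p = 0.843 for Klf2 and 0.10 ± 0.12, adjusted p = 0.635 for Klf4.

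Basement membrane genes moved in both directions. Of 19 genes tested, 4 were higher and 4 were lower (21.1% each, against 4.43% and 2.23% of all genes), with a median of 0.04. Col18a1 had 314, 393 and 481 CPM in WT and 496, 666 and 903 CPM in ob/ob, without overlap (log2 fold change 0.75 ± 0.11 (SE), adjusted p = 1.2e-05). Lamb2, the laminin beta chain of the mature glomerular basement membrane, had 351, 380 and 457 CPM in WT and 455, 568 and 675 CPM in ob/ob (log2 fold change 0.54 ± 0.08 (SE), adjusted p = 4.2e-06). Lamb1, the beta chain of the immature membrane and the mesangium, had 195, 250 and 326 CPM in WT and 100, 141 and 194 CPM in ob/ob, without overlap and in the opposite direction (log2 fold change -0.78 ± 0.14 (SE), adjusted p = 0.000128). Lama3 (0.44 ± 0.08) and Col4a2 (0.35 ± 0.10) rose, and Lama4 (-0.73 ± 0.13), Col15a1 (-0.81 ± 0.15) and Hspg2, the perlecan gene, (-0.53 ± 0.12) fell. Col4a1, the partner of Col4a2, was at 0.25 ± 0.10, adjusted p = 0.138. Col4a3, Col4a4 and Col4a5, which podocytes produce, were at -0.49 ± 0.41, -0.54 ± 0.42 and -0.60 ± 0.46, and the part of podocyte RNA in these values was not tested.

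Receptors for the matrix changed as well. Itga6, the laminin-binding integrin alpha 6 gene, had 350, 408 and 429 CPM in WT and 222, 282 and 330 CPM in ob/ob, without overlap (log2 fold change -0.54 ± 0.07 (SE), adjusted p = 1.93e-07). Integrin and adhesion receptor genes were higher in 4 of 18 and lower in this 1 (22.2% and 5.56%, against 4.43% and 2.23% of all genes). Itgb3, a vitronectin receptor chain, had 22.5 to 32 CPM in WT and 32.8 to 75.5 CPM in ob/ob, without overlap (log2 fold change 0.84 ± 0.18 (SE), adjusted p = 0.00151), and Itgb4 (0.72 ± 0.17), Cd93 (0.60 ± 0.13) and Mcam (0.41 ± 0.08) were the other increases. Junction genes were higher in 6 of 19 (31.6%, against 4.43% of all genes) and lower in none: Gja4, the gap junction gene connexin 37 (0.69 ± 0.12), Cdh13 (0.59 ± 0.11), Jam2 (0.57 ± 0.12), Cldn15 (0.42 ± 0.10), Esam (0.34 ± 0.07) and Gjc1 (0.24 ± 0.05). Cdh5, the VE-cadherin gene, was at 0.10 ± 0.06, adjusted p = 0.356.

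Glycocalyx genes were higher in 4 of 27 (14.8%, against 4.43% of all genes). Beside Bgn, these were the hyaluronidase genes Hyal1 and Hyal2 and the heparan sulfate endosulfatase gene Sulf2. Hyal1 had 70.8, 77.5 and 84.5 CPM in WT and 93.3, 118 and 133 CPM in ob/ob, without overlap (log2 fold change 0.60 ± 0.07 (SE), adjusted p = 1.06e-07). Hyal2 changed by 0.45 ± 0.07 and Sulf2 by 0.54 ± 0.11. Genes of fenestrae and caveolae were higher in 3 of 14 (21.4%). Plvap, which forms the diaphragms of fenestrae and is normally low in gECs, had 16.4, 23.1 and 30 CPM in WT and 31.6, 51 and 79.4 CPM in ob/ob, without overlap (log2 fold change 1.14 ± 0.20 (SE), adjusted p = 0.000171). Msn (0.33 ± 0.07) and Ehd4 (0.29 ± 0.09) followed, whereas the gEC marker Ehd3 was at -0.09 ± 0.12, adjusted p = 0.695 and Cav1 at 0.26 ± 0.09, adjusted p = 0.0821. The Ehd4 call was lost in 11 of 25 alternative settings.

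Of 28 fatty acid genes, 4 were higher and 2 were lower (14.3% and 7.14%, against 4.43% and 2.23% of all genes). Gpihbp1, which carries lipoprotein lipase to the capillary lumen, had 33.3, 43.5 and 51.3 CPM in WT and 50.5, 77.1 and 122 CPM in ob/ob (log2 fold change 0.96 ± 0.15 (SE), adjusted p = 2.23e-05), and Lpl itself had 0.38 ± 0.14, adjusted p = 0.0871. Ucp2, a mitochondrial carrier gene, had 258, 305 and 331 CPM in WT and 365, 489 and 653 CPM in ob/ob, without overlap (log2 fold change 0.74 ± 0.09 (SE), adjusted p = 1.35e-07). Cd36, the fatty acid translocase gene, was lower, with 212, 258 and 303 CPM in WT and 142, 168 and 198 CPM in ob/ob and no overlap (log2 fold change -0.59 ± 0.14 (SE), adjusted p = 0.00599). Pdk4, which restrains glucose oxidation, had 22.7 to 64.5 CPM in WT and 22.3 to 40.5 CPM in ob/ob (log2 fold change -0.70 ± 0.16 (SE), adjusted p = 0.00325). Slc27a3 (0.48 ± 0.11) and Acadvl (0.20 ± 0.06) were the other increases.

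Of 27 genes of cholesterol synthesis and uptake, 3 were lower (11.1%, against 2.23% of all genes) and 1 was higher (3.7%, against 4.43%). Sqle (-0.53 ± 0.14) and Srebf2, the transcription factor of the pathway (-0.25 ± 0.07), were among the lower genes, and the efflux pump gene Abca1 was the higher gene (0.47 ± 0.14). The calls of Srebf2 and Abca1 were each lost in 12 of 25 alternative settings. Insulin, leptin and IGF genes were higher in 2 and lower in 4 of 26 (7.69% and 15.4%). Igfbp3 had 9.41, 13.3 and 19 CPM in WT and 20.5, 27.1 and 42.6 CPM in ob/ob, without overlap (log2 fold change 1.11 ± 0.27 (SE), adjusted p = 0.00665), Adipor2 rose (0.42 ± 0.11), and Igf1 (-1.43 ± 0.45), Igf1r (-0.29 ± 0.08), Igf2r (-0.27 ± 0.08) and the abundant Igfbp5 (-0.38 ± 0.11) fell. The leptin receptor gene Lepr had 5.3, 6.53 and 8.31 CPM in WT and 4.24, 6.01 and 8.34 CPM in ob/ob (-0.11 ± 0.17, adjusted p = 0.733), and the insulin receptor gene Insr had 105, 125 and 132 CPM in WT and 107, 119 and 154 CPM in ob/ob (0.01 ± 0.06, adjusted p = 0.953). Without WT male 1 and male 2 none of the 4 decreases in insulin, leptin and IGF signalling passed. The Igf1 call was lost in 16 of 25 alternative settings. Of the FOXO targets 2 of 20 (10%) were lower, Foxo1 (-0.29 ± 0.05) and Pdk4.

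Other metabolic and stress lists held at most 3 higher genes each. The shares called higher were 15% for the unfolded protein response, 11.5% for glucose and 10% for hypoxia, against 4.43% of all genes. Oxidative phosphorylation (3.85%) and NRF2 genes (5%) lay near the share of all genes. Of the hypoxia targets 5% were lower, against 2.23% of all genes. Of 26 glucose genes, G6pdx, Ldha and Hk1 were higher, at 0.31, 0.27 and 0.22. Hypoxia targets were higher in 2 of 20 (Hif3a, at 0 to 0.464 CPM in WT and 0.0742 to 3.51 CPM in ob/ob, and Epas1 at 0.30 ± 0.08) and lower in 1 (Ndrg1 at -0.45 ± 0.11). Of 26 oxidative phosphorylation genes 1 was higher, and of 20 NRF2 antioxidant genes Gstm1 was higher (0.37 ± 0.10). The list median for oxidative phosphorylation was 0.18 and that of the NRF2 genes 0.11. Of 20 genes of the unfolded protein response, the chaperone genes Dnajb11 (0.42 ± 0.11), Pdia3 (0.35 ± 0.11) and Dnajc3 (0.28 ± 0.08) were higher, with a list median of 0.25. The calls of Pdia3 and Dnajc3 were lost in 11 and 7 of 25 alternative settings.

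Glucocorticoid targets, which report the action of corticosterone in the mouse, were higher in 4 of 18 and lower in 1. These shares were 22.2% and 5.56%, against 4.43% and 2.23% of all genes. Besides Fam107a and Fkbp5 the higher genes were Sult1a1 (0.67 ± 0.22) and Sgk1 (0.30 ± 0.09), and the lower gene was Pdk4. Fkbp5 had 3.06, 3.85 and 6.47 CPM in WT and 4.9, 9.09 and 39.8 CPM in ob/ob (log2 fold change 1.81 ± 0.47 (SE), adjusted p = 0.0118), and ob/ob male 3 (39.8 CPM), female 4 (24.2 CPM) and male 2 (15 CPM) stood above the other libraries. Those 3 libraries were also the highest for Fam107a. Without ob/ob male 3, glucocorticoid targets held 1 higher gene and Fkbp5 did not pass (1.37, adjusted p = 0.0679). Zbtb16, a further target, spread from 7.14 to 44.4 CPM in WT and 7.6 to 181 CPM in ob/ob (1.46 ± 0.61, adjusted p = 0.15), and Nr3c1, the receptor gene, was at 0.01 ± 0.06. None of the 18 circadian clock genes passed, with a list median of 0.24 and values of 0.25 ± 0.23 for Per1, 0.70 ± 0.42 for Per2 and 0.62 ± 0.67 for Dbp.

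Interferon response genes did not pass in either direction (0 of 24, median -0.02), and the interferon-induced genes Ifit1 and Isg15 had 0.13 ± 0.37 and 0.09 ± 0.25. MHC and antigen presentation genes were higher in 1 of 21 (4.76%, near the 4.43% of all genes). This was H2-T23, a class I gene near C920025E04Rik and H2-Bl (0.41 ± 0.12, adjusted p = 0.0244). Adhesion and NF-kB genes were higher in 2 of 19 (10.5%), with a median of 0.29. Sele, the E-selectin gene, had 29.6, 93 and 115 CPM in WT and 153, 181 and 195 CPM in ob/ob, without overlap (log2 fold change 1.04 ± 0.24 (SE), adjusted p = 0.00387), and Icam2 was at 0.36 ± 0.08. Vcam1 had 0.74 ± 0.24, adjusted p = 0.0553 and Icam1 0.32 ± 0.23, adjusted p = 0.415. Immediate early genes, which respond to tissue digestion, were higher in 2 of 24 or 8.33% (Dusp6, 0.60 ± 0.10, and Myc, 0.67 ± 0.21). The Myc call was lost in 15 of 25 alternative settings. Fos (0.02 ± 0.12), Jun (-0.13 ± 0.11) and Egr1 (-0.31 ± 0.13) did not pass.

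VEGF and angiopoietin genes were higher in 2 of 23 (8.7%, against 4.43% of all genes), Fgfr3 (log2 fold change 0.81 ± 0.11 (SE), adjusted p = 1.74e-06) and Flt4 (0.22 ± 0.06). The Flt4 call was lost in 10 of 25 alternative settings. The receptor genes of the podocyte signal did not pass: Kdr had 4350, 5400 and 5800 CPM in WT and 4030, 4860 and 5730 CPM in ob/ob (-0.12 ± 0.08, adjusted p = 0.388) and Flt1 had 1680, 2020 and 2130 CPM in WT and 1720, 1800 and 2110 CPM in ob/ob (-0.09 ± 0.06, adjusted p = 0.395). Vegfa (0.13 ± 0.10, adjusted p = 0.47) and Angpt2 (0.15 ± 0.15, adjusted p = 0.601) did not pass. Of 19 Notch genes, the ligand genes Jag1 (0.62 ± 0.15) and Dll1 (0.35 ± 0.09) and the modifier Lfng (0.46 ± 0.09) were higher and Notch2 was lower (-0.43 ± 0.10), while Dll4 had -0.34 ± 0.13, adjusted p = 0.0949. These shares were 15.8% higher and 5.26% lower, against 4.43% and 2.23% of all genes. Guidance genes were higher in 4 of 27, or 14.8% (Ephb3, Sema3f, Efnb1 and Ephb4), and lower in 2, or 7.41% (Plxnd1 and Ephb1). Sema3f (0.40 ± 0.07) had no overlap, and Ephb3, at up to 1.83 CPM, was at the limit of detection. Sphingosine, protease and lysophospholipid receptor genes were higher in 3 of 19 (15.8%), P2ry2 (0.73 ± 0.20), S1pr1 and Adgrl4 (0.36 ± 0.09), and none of the 3 passed without WT male 1 and male 2.

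MRTF/SRF targets, genes of the actin cytoskeleton, were higher in 6 of 29 (20.7%, against 4.43% of all genes) and lower in none, with a median of 0.18. The study chose part of this list on these samples, so it is no independent evidence of its direction. The increases were Filip1l (0.56 ± 0.11), Actn1 (0.42 ± 0.10), Cnn2 (0.35 ± 0.09), Csrp1 (0.29 ± 0.08), Tgfb1i1 (0.28 ± 0.08) and Vcl (0.26 ± 0.06). Acta2 had 2.11, 3.49 and 5.56 CPM in WT and 2.9, 7.05 and 15.4 CPM in ob/ob (0.88 ± 0.29, adjusted p = 0.0554), and Tagln had 3.25, 5.77 and 9.1 CPM in WT and 2.26, 4.83 and 7.41 CPM in ob/ob (-0.29 ± 0.24, adjusted p = 0.503). A CArG box, the SRF element, was found in the promoter windows of 3 of the 5 higher genes with a window (60%), of 39.1% of the list and of 1.59% of tested genes. The list was made of SRF targets, so its share of SRF elements is no independent evidence, and a match describes only the letters of the window. YAP/TEAD targets were higher in 1 of 20 (Amotl2, 0.36 ± 0.12) and lower in 2 (Ptpn14, -0.20 ± 0.06, and Nt5e), against 4.43% higher and 2.23% lower of all genes, and Ctgf had 0.33 ± 0.35, adjusted p = 0.615. Of 25 alternative settings, the call of Amotl2 was lost in 14, that of Ptpn14 in 14 and that of Nt5e in 7.

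**Figure D4:**
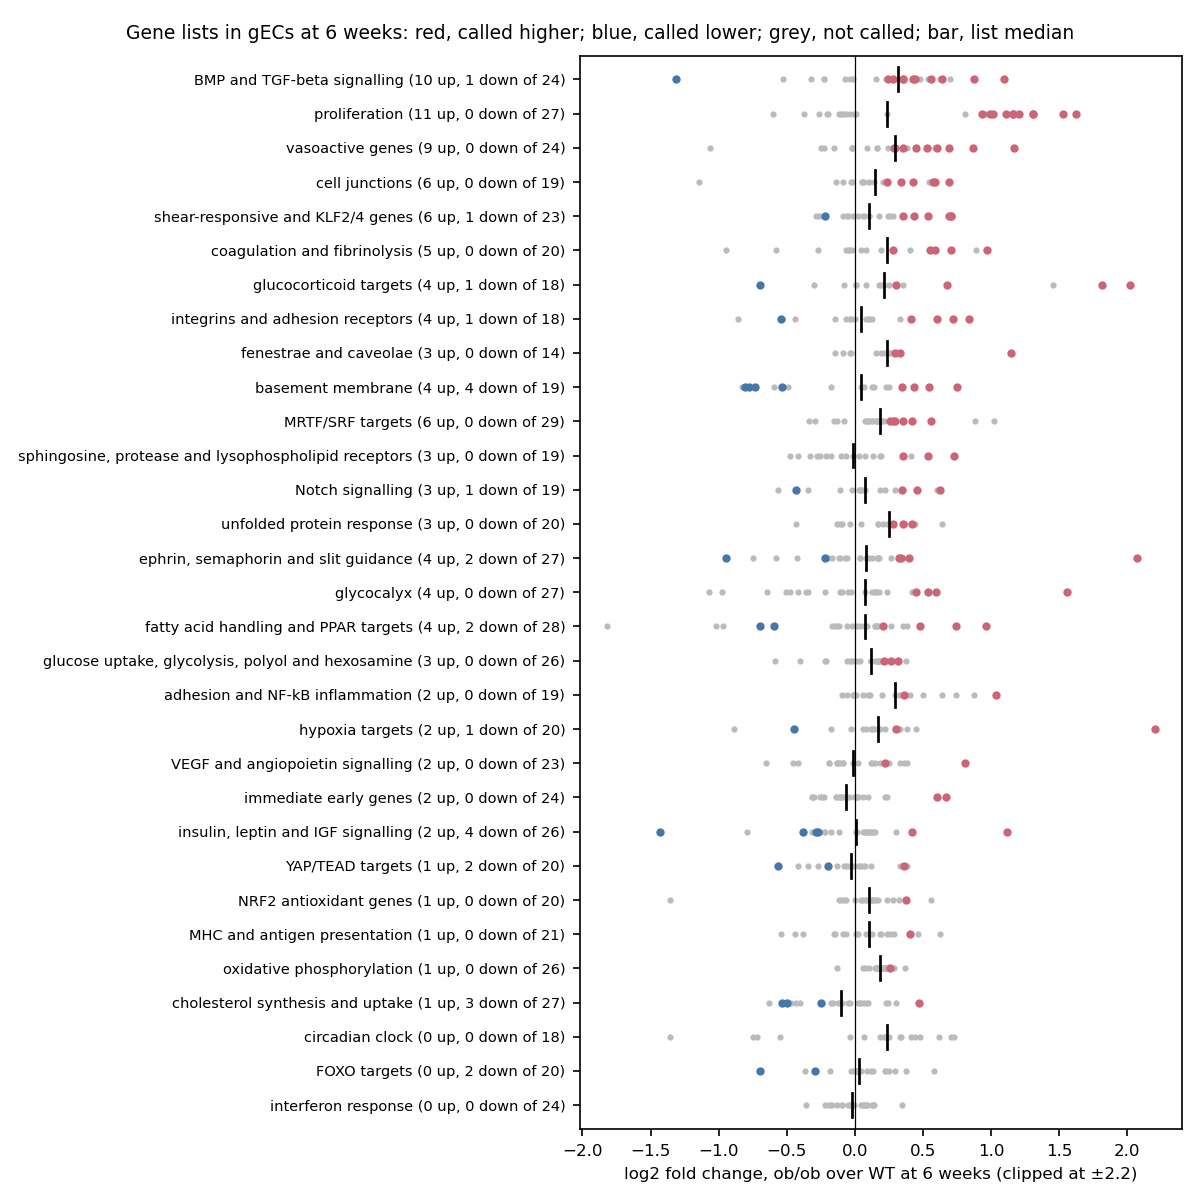
Log2 fold change of ob/ob over WT at 6 weeks (horizontal axis, clipped at ±2.2) for each tested member of 31 gene lists, ordered by the share of members called higher. Red points were called higher, blue points lower and grey points not called, and the black bars mark list medians, which reach 0.32 for BMP and TGF-beta signaling.

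Cell type markers were checked beside these lists. Of 16 gEC markers, Sost and Plat were higher and none was lower, and their summed level was 23900 to 28500 CPM in WT and 24000 to 31100 CPM in ob/ob. Of 14 markers of other endothelium, Plvap, Aqp1 (0.91 ± 0.15) and Fbln5 (0.91 ± 0.19) were higher (21.4%, against 4.43% of all genes). None was lower, and the list median was 0.49. The summed level overlapped (2030 to 2380 CPM in WT and 2100 to 2720 CPM in ob/ob). At 12 and 18 weeks 6 and 9 of these markers were higher, with medians of 1.13 and 0.86. The part of other endothelial cells in these values was not tested. None of 14 podocyte markers passed, but their median was -0.64, with the highest values in WT male 1 and WT male 2. Without these 2 libraries, the podocyte median was 0.10 and 903 genes were called, and 37 of 137 called genes that were followed did not pass. With the summed podocyte, mesangial and parietal markers as a covariate, a sum of mostly podocyte markers, 1423 genes were called and all 137 passed.

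Mesangial markers were higher in 1 (Serpine2) and lower in 1 of 10 (Nt5e, the gene of the gate antigen CD73, at 13.3 to 26 CPM in WT and 9.16 to 16.1 CPM in ob/ob), with sums of 121 to 290 CPM and 143 to 280 CPM. The defining markers Itga8 and Pdgfrb averaged 11.5 and 10.9 CPM in gECs against 5560 and 3300 CPM in mesangial cells. Pax8 was lower among 3 tested parietal markers (-1.35 ± 0.36, adjusted p = 0.0137) and Csf1r among 6 tested immune markers (-0.96 ± 0.30, adjusted p = 0.0391), both at or below 6.13 CPM in all libraries. Neither passed without WT male 1 and male 2. No smooth muscle, renin cell, proximal tubule, distal nephron, erythroid or fibroblast marker passed, and no neutrophil marker was high enough to be tested. The summed proximal tubule markers were 48.6 to 64.1 CPM in WT and 39.5 to 52.3 CPM in ob/ob, and the summed immune markers were 11.4 to 21.4 CPM and 6.12 to 14.4 CPM. The part of such cells in the results was not tested.

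Females and males were then compared. Within females 135 genes (0.748%) were called, 96 higher (0.532%) and 39 lower (0.216%). Within males 592 genes (3.28%) were called, 383 higher (2.12%) and 209 lower (1.16%). The contrast within a sex rests on 4 libraries per genotype, and no gene passed the test of the difference between the sexes, in which 692 genes had an unadjusted p below 0.05. DESeq2 called 12 genes for that difference. Of the 6-week calls, those with the smallest p for the difference were Gm6265, Gtse1, P2rx7, Eng and Stx3. Gm6265 rested on WT females at or near 0, where a fitted fold change is no bound (6.22 ± 1.24, adjusted p = 0.206). Gtse1, a gene of G2 and mitosis, had 0.47 ± 0.37 in females and 2.28 ± 0.39 in males (adjusted p of the difference = 1), P2rx7 had 0.24 ± 0.12 and 0.80 ± 0.12 (adjusted p = 1), and Eng had 0.38 ± 0.12 and 0.91 ± 0.12 (adjusted p = 1). Stx3 had 0.02 ± 0.09 in females and 0.41 ± 0.09 in males, and its call over both sexes was lost in 18 of 25 alternative settings. Over all genes, Msmo1 of cholesterol synthesis (-0.38 ± 0.10 in females, 0.30 ± 0.10 in males, adjusted p of the difference = 0.206) and the predicted genes Gm5641, RP23-10D15.3 and Gm37900 followed Gm6265 in order of p.

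The gEC libraries of 12 and 18 weeks, which come from other samples with their own WT controls, were used to see whether the effect at 6 weeks differed from that at later ages. At 12 weeks 1835 genes (10.2%) were called, 992 higher (5.49%) and 843 lower (4.67%). At 18 weeks 1131 genes (6.26%) were called, 722 higher (4%) and 409 lower (2.27%). Of the 1203 genes called at 6 weeks, 623 were also called with the same sign at 12 weeks (51.8% of the 6-week and 34% of the 12-week calls) and 505 at 18 weeks (42% and 44.7%). The difference between ages itself passed for 49 genes (0.271%) at 12 against 6 weeks and for 19 genes (0.105%) at 18 against 6 weeks, of which 21 and 11 were called at 6 weeks. The effect was more positive at 12 weeks for 28 genes (0.155%) and more negative for 21 (0.116%), and at 18 weeks for 11 (0.0609%) and 8 (0.0443%).

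Plvap and Cd93 had the smallest p for that difference among genes rising at every age. Plvap was at 3.05 ± 0.22 at 12 weeks and 3.25 ± 0.23 at 18 weeks on the log2 scale, against 1.14 ± 0.20 at 6 weeks (adjusted p of the differences = 0.000361 and 0.000101). Cd93, a C-type lectin gene of endothelial adhesion, was at 0.60 ± 0.13, 2.28 ± 0.14 and 2.08 ± 0.15 at 6, 12 and 18 weeks (adjusted p = 5.27e-07 and 3.72e-05). Fbln5, an elastic fiber gene, was at 0.91 ± 0.19, 2.41 ± 0.20 and 2.28 ± 0.22, and the matrix protease gene Mmp2 was at 0.60 ± 0.18, 2.00 ± 0.19 and 1.66 ± 0.20. Edn1 was at 0.69 ± 0.17, 1.88 ± 0.18 and 1.62 ± 0.19 (adjusted p = 0.0135 for 12 against 6 weeks).

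Ednrb and Pygm, the muscle glycogen phosphorylase gene, were the 2 genes called at all 3 ages with the opposite sign at 12 and 18 weeks to that at 6 weeks. Ednrb was at 0.60 ± 0.16, -0.87 ± 0.16 and -0.88 ± 0.18 at 6, 12 and 18 weeks (adjusted p of the differences = 0.000574 and 0.000927). At 6 weeks Ednrb did not pass without ob/ob female 4 (0.50, adjusted p = 0.06) nor Pygm without ob/ob male 2 (0.33, adjusted p = 0.0507). Pygm was at 0.35 ± 0.10, -0.36 ± 0.10 and -0.43 ± 0.11 (adjusted p = 0.00711 and 0.00766). Pdk4 was lower in ob/ob at 6 weeks (-0.70 ± 0.16) and at 0.46 ± 0.16 and 0.37 ± 0.17 later (adjusted p = 0.00652 and 0.0384). The ob/ob effect on C920025E04Rik was larger at 6 weeks than later (2.14 ± 0.20, 0.87 ± 0.19 and 0.71 ± 0.21, adjusted p = 0.0191 and 0.0147). Zfp445 fell by more at later ages (-0.20 ± 0.06, -0.59 ± 0.06 and -0.70 ± 0.06). For Plxnc1, Serpine2 and Sost the difference between ages did not pass.

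Mesangial cells and podocytes of 6 weeks, 16 libraries each, may come from the same mice. The effect was compared in a joint fit of 48 libraries that treated all libraries as independent. In this fit 1600 genes were higher (8.73%) and 806 lower (4.4%) in ob/ob mesangial cells, and 1277 were higher (6.96%) and 701 lower (3.82%) in ob/ob podocytes. The effect in gECs differed from that in mesangial cells for 683 of 18336 genes (3.72%), 291 more positive (1.59%) and 392 more negative (2.14%) in gECs. It differed from that in podocytes for 974 (5.31%), 469 more positive (2.56%) and 505 more negative (2.75%). With same-numbered libraries of a genotype and sex as a block, the counts against mesangial cells and podocytes were 796 and 1130. The gEC lists with most calls had other counts in these cells: of BMP and TGF-beta genes 11 were higher and 2 lower in mesangial cells and 3 and 3 in podocytes, and of the proliferation genes 7 were higher in mesangial cells and 2 in podocytes. The effect itself differed from gECs for 7 BMP and TGF-beta genes in mesangial cells and 5 in podocytes, and for 1 and 2 proliferation genes. Of 1191 gEC calls measured in this fit, 183 differed from mesangial cells, 298 from podocytes and 77 from both.

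Itga6 was lower in gECs (-0.52 ± 0.13) and higher in mesangial cells (1.05 ± 0.15), with an adjusted p of the difference of 7.59e-07. The matrix gene Ogn had -1.54 ± 0.34 in gECs and 3.24 ± 0.33 in mesangial cells, and the transporter gene Abcc3 -0.53 ± 0.19 and 1.94 ± 0.21 (adjusted p = 1.07e-08 and 1.17e-07). Serping1, a complement inhibitor gene, was at -0.63 ± 0.11 and 0.59 ± 0.10, and Pik3r3, a regulatory subunit of phosphoinositide 3-kinase, at 0.49 ± 0.07 and -0.26 ± 0.07. Of 25 alternative settings of the gEC comparison, the call of Serping1 was lost in 13 and that of Ogn in 5. Against podocytes, the prostaglandin transporter gene Slco2a1 rose in gECs (0.81 ± 0.08) and was lower in podocytes (-0.73 ± 0.08, adjusted p of the difference = 3.55e-13). Camk2a (-0.94 ± 0.19 and 3.32 ± 0.22), Akap6 (-0.54 ± 0.18 and 2.51 ± 0.19) and Cobll1 (-0.35 ± 0.09 and 1.87 ± 0.11) were lower in gECs and higher in podocytes. The gEC call of Akap6 was lost in 12 of 25 settings.

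**Figure D5:**
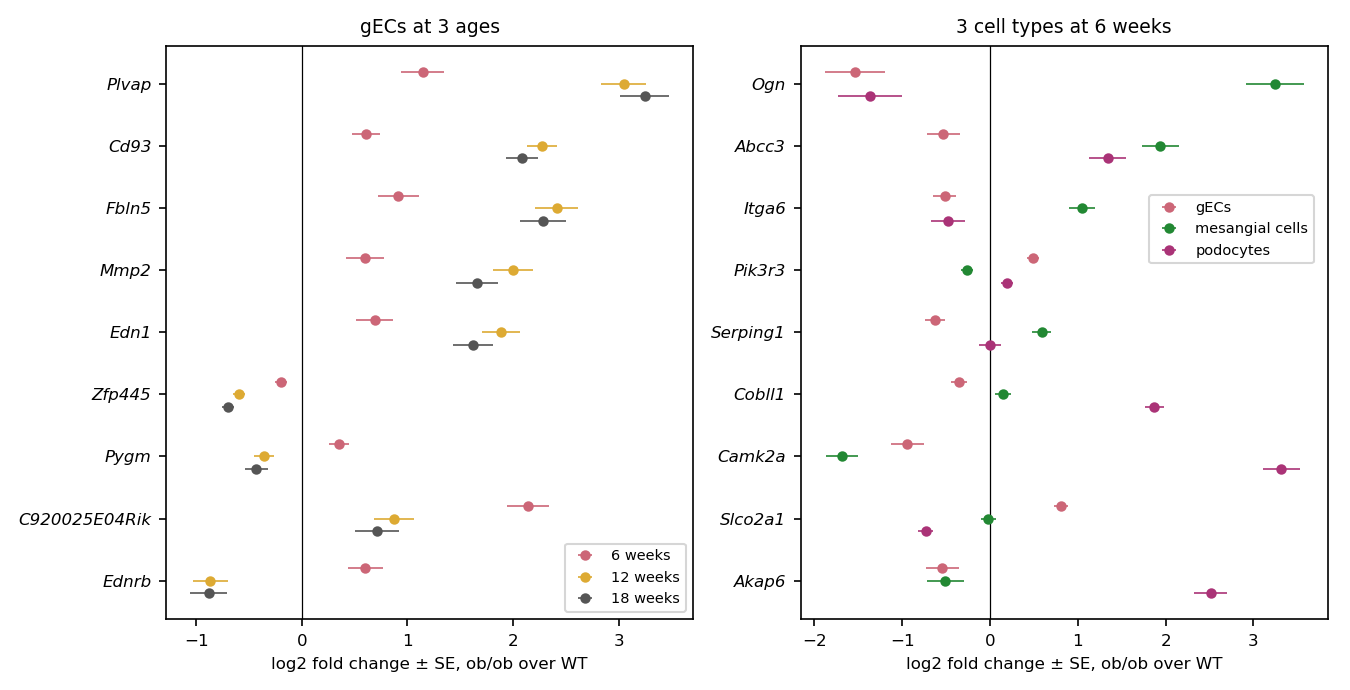
Log2 fold change of ob/ob over WT (± SE, horizontal axes) for genes whose effect at 6 weeks differed from that at later ages (left, gECs at 6, 12 and 18 weeks) or from that in another cell type (right, gECs, mesangial cells and podocytes at 6 weeks). Plvap and Cd93 lie further from 0 at 12 and 18 weeks than at 6 weeks, Ednrb and Pygm change sign, and Itga6 is lower in gECs but higher in mesangial cells.

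The genomic position of the calls was examined because the ob allele may carry linked sequence. Within 10 Mb of Lep on chromosome 6, 3 of 118 tested genes (2.54%) were called, against 6.72% of 17828 tested genes elsewhere, and none of the 3 changed 2-fold. From 33 to 38 Mb of chromosome 17, a window around C920025E04Rik and H2-Bl chosen after the values were seen, 13 of 192 genes (6.77%) were called. Among them was the class I gene H2-T10 (log2 fold change 0.96 ± 0.20 (SE), adjusted p = 0.00173).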

How the data were processed

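gECs were sorted and sequenced with a SMART-Seq Stranded kit. The authors mapped reads to mm10 with Bowtie2 2.3.3.1 and deposited expected counts and TPM from RSEM 1.3.0 (FastQC 0.11.5 for read quality). The annotation release is not given in the sources used here. The deposited expected counts were rounded to whole numbers and tested with edgeR 4.0.16 (quasi-likelihood, R 4.3.3) over 46 gEC libraries of 6, 12 and 18 weeks, in 6 groups of genotype and age with sex as a covariate, TMM scaling, filterByExpr and Benjamini-Hochberg adjustment. Cell types were compared over 48 libraries of 6 weeks. Ranges are TMM-scaled CPM. The deposited TPM were tested as log2(TPM + 1) with limma 3.58.1. DESeq2 1.42.0, another scaling, no filter, no sex term, a replicate block, the 6-week libraries alone and leaving out each library were alternatives. A marker covariate and leaving out WT male 1 and male 2 were added after seeing the data.

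The members and gene lists were chosen with earlier results of these data known. Named genes were the 14 largest increases and decreases among calls (mean of at least 1 CPM, every ob/ob library on one side of the WT median), up to 4 calls of smallest p per list, a set of endothelial genes, and up to 5 genes per difference of effects. Other list members were named after their values were seen, and some genes are not reported here. On simulated data for this comparison (14095 genes), 56% of 100 genes changed 1.5-fold and 77% of 100 changed 2-fold were recovered, with 11 false calls. The simulation held only genes with a mean of at least 1 CPM, without differences between sexes or ages beyond the set changes. Recovery among genes below that level was not simulated. Counting error only is covered by depth, which was 22.3 to 35.0 M counts. Genes with near-identical copies are uncertain.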

Additional observations from a re-analysis of the deposited data

Results flagged for a closer look

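Among 98 sets of 8 libraries of 1 genotype, 6 held a library that stood apart from the other 7, and chance gives about 1 in 20. These were Col13a1 in WT female 4 (2.02 CPM), Vegfa in WT male 2 (612 CPM), Lep in ob/ob male 3 (0.0941 CPM), Acta2 in ob/ob male 2 (15.4 CPM), the depth of WT female 4 (35 M counts) and the genes detected in WT male 1 (20546).

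The ob/ob effect in gECs differed between 12 and 6 weeks for 49 genes and between 18 and 6 weeks for 19 genes. On the log2 scale, the effect at 12 weeks minus that at 6 weeks was 1.67 for Cd93, 1.90 for Plvap, 1.40 for Mmp2, 1.5 for Fbln5 and -1.47 for Ednrb. The effect at 18 weeks minus that at 6 weeks was 1.48 for Cd93, 2.10 for Plvap, -1.49 for Ednrb, -0.50 for Zfp445 and -0.78 for Pygm.

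At 6 weeks the effect in gECs differed from that in mesangial cells for 683 genes and from that in podocytes for 974 genes. The gEC effect minus the mesangial effect was -4.79 for Ogn, -2.47 for Abcc3, -1.56 for Itga6, 0.75 for Pik3r3 and -1.21 for Serping1. The gEC effect minus the podocyte effect was -2.22 for Cobll1, -4.26 for Camk2a, 1.54 for Slco2a1 and -3.06 for Akap6. Each of these differences passed its own interaction test in edgeR.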

How the results depend on the processing

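The fold change of no called gene that was followed changed sign under the alternatives run, but the balance of calls did change. The ob/ob effect in gECs at 6 weeks gave 1203 calls, 858 to 2457 when each library was left out in turn (the latter without ob/ob female 3) and 710 on the deposited TPM (344 higher and 366 lower, against 800 and 403), and the other alternatives stayed within 1.5-fold. The age difference for 12 against 6 weeks gave 105 genes with DESeq2, 29 on the deposited TPM and 43 to 65 with a library left out. That for 18 against 6 weeks gave 58 with DESeq2, 8 on the deposited TPM and 12 to 26 with a library left out, with 6 higher and 7 lower under the replicate block and 7 and 8 with no sex term against 11 and 8, and the lowest count reached without ob/ob female 2 and without ob/ob female 3. The difference between females and males gave 12 genes with DESeq2, 1 with the replicate block and 0 whichever library was left out. The difference from mesangial cells gave 942 genes with DESeq2 and 583 to 751 with a gEC library left out, against 683. That from podocytes gave 1253 with DESeq2 and 842 to 1205 with a gEC library left out, against 974. Same-numbered libraries were not taken as pairs (residual correlations of -0.0861 to 0.257), and the replicate block gave 1506 calls at 6 weeks, 886 higher and 620 lower. Leaving out ob/ob male 2 gave 266 lower calls. Of 137 called genes that were followed, 35 lost their call when at least 1 of the 16 libraries was left out, and 37 did so on the deposited TPM. Lost calls are given by name for only some of these genes. The causes were not tested. Depth and the number of libraries limit calls among genes of low counts.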
